A study of Mus musculus with 44 samples.

Results

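The genes described here are the nuclear genes for subunits of the mitochondrial respiratory chain and of ATP synthase, as measured in lymphomas of Eµ-myc mice. They were taken by symbol from the array annotation: names that begin with Nduf followed by a, b, c, s or v and a digit (complex I), Sdha to Sdhd (complex II), Uqcr (complex III), Cox4 to Cox8 (complex IV) and Atp5 (ATP synthase). Of 12393 genes with a probe set of their own, 78 met this rule, 33 in complex I, 4 in complex II, 8 in complex III, 16 in complex IV and 17 in ATP synthase. They had 147 probe sets, and the probe set with the highest mean stood for the gene. All 78 were among the 8721 genes that passed a filter on low values, which asked that at least 1 array lie above the median of its set of arrays.

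The series holds 44 arrays of total RNA from Eµ-myc mice, whose Myc transgene is driven by the enhancer of the immunoglobulin heavy chain gene and which develop B cell lymphomas. There were 43 lymphomas and 1 spleen, and the spleen carried the transgene too, so no array represents a mouse without it. The labels give no age, sex or treatment, do not tell whether any lymphomas shared a mouse, and do not state the disease status of the spleen. Some RNA came from frozen tissue and some from pellets of dissociated cells, with no record per array. P-values therefore measure only the spread between these samples.

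Complex I takes electrons from NADH and complex II takes them from succinate. Both pass them to ubiquinone, from which they travel through complex III and cytochrome c to complex IV, where oxygen is reduced. Complexes I, III and IV pump protons across the inner mitochondrial membrane, and ATP synthase uses the gradient to make ATP. Myc is known to raise many nuclear genes of mitochondria in B cells. Most subunits are made in every tissue, but complex IV has alternative subunits whose expression is restricted to muscle, testis, lung or brown fat.

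The arrays fell into 2 sets with different overall levels, 36 lymphomas with titles up to D117 (column medians of 6.21 to 6.45) and 7 lymphomas with the spleen after it (6.85 to 7.01). Lymphomas are named here by their titles, from D34 to D163. All comparisons took the set into account, and centred values are log2 values minus the mean of the lymphomas of the same set. In 4 lymphomas the scores of cell type markers stood apart. Their mean centred level of B cell markers was -3.32 in D92, -2.40 in D55, -1.57 in D121 and -1.12 in D59, and D59 had a stroma score of 4.91, a macrophage score of 3.25 and an adipocyte score of 6.28. Results are therefore also given without these 4. The 3′ minus 5′ difference of the control probe sets, a measure of RNA quality, was 1.18 in D84, 1.07 in D85 and 0.93 in D92. In the other lymphomas it was 0.71 at most. In bulk RNA, fewer cells of a type and less RNA per cell cannot be told apart.

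Most subunit genes varied little from lymphoma to lymphoma. The median SD of their centred log2 values was 0.215 over the 43 lymphomas, and 72 of 78 lay below the median of 0.338 over all 8721 genes. By complex, the median SD was 0.180 in ATP synthase, 0.194 in complex IV, 0.213 in complex III, 0.229 in complex I and 0.261 in complex II. Of the 6 genes above the median of all genes 5 belonged to complex IV. Below that median also lay 32 of 39 proteasome subunit genes, 64 of 74 mitochondrial ribosomal protein genes, 14 of 16 TCA cycle genes and 20 of 30 assembly factors. A low spread was thus not particular to the subunit genes. Their median level was 11.03 in the lymphomas up to D117, well above the column medians of 6.21 to 6.45. Their spread against genes of a similar level was not tested.

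The 6 steadiest genes came from complex IV and ATP synthase. Cox6b1, the common form of a subunit that faces the intermembrane space, ranged from 12.04 to 12.65 with a median of 12.31 in the 36 lymphomas, and from 12.84 to 13.20 with a median of 13.08 in the 7. Its SD was 0.138, close to those of Cox5a (0.140), Atp5pb (0.142), Cox5b (0.145), Atp5c1 (0.146) and Cox6a1 (0.148). Cox5a and Cox5b belong to the conserved nuclear-encoded core of complex IV, and Atp5c1 is the central rotating stalk of ATP synthase. The 6 with the widest spread were Cox6a2 (1.04), Cox6b2 (0.533), Ndufb1 (0.504), Cox7a1 (0.497), Cox8b (0.434) and Cox7c (0.412). Of these, 4 are tissue-restricted isoforms, Ndufb1 is a small accessory subunit of complex I, and Cox7c is a small subunit of complex IV. The chosen probe set of Cox7c had a mean of only 6.88 and its other one 4.67, against 12.45 for that of Cox6b1. The values of Cox7c here and below may therefore measure the gene poorly. The probe sets of 6 genes did not lie above the median of their set on every array: Cox8b did so on 1 array, Cox6b2 on 3, Cox7a1 on 4, Cox4i2 on 39, Cox7c on 40 and Cox6a2 on 43.

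**Figure D1:**
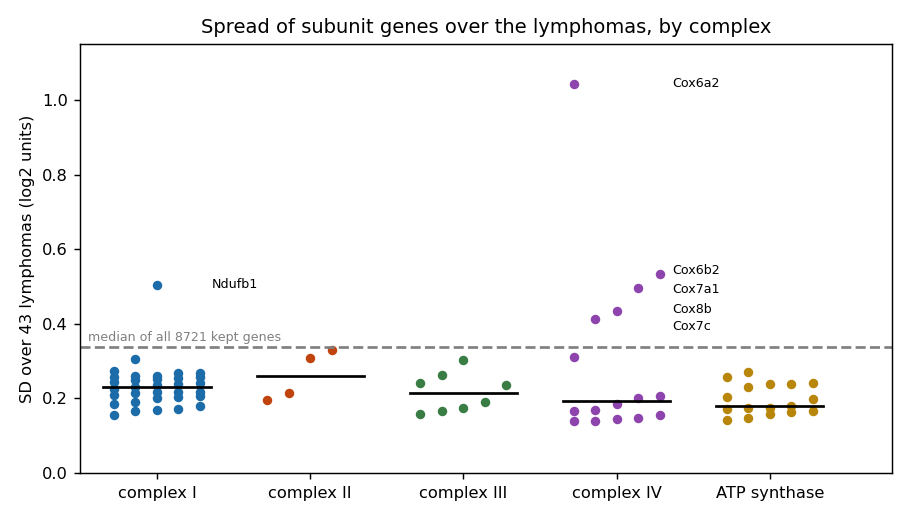
SD of centred log2 values over the 43 lymphomas for each of the 78 subunit genes, by complex; points are genes, black bars the medians of the complexes, and the dashed line the median of all 8721 genes (0.338). Nearly all points lie below the line, and Cox6a2, at 1.04, stands alone.

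Where a gene had several probe sets, these mostly followed each other. Among 43 genes there were 69 pairs of a chosen and another probe set, with a median Pearson r of 0.774 over the lymphomas and an r above 0.5 in 55 pairs. Cox7a2l, a factor that joins complexes III and IV into supercomplexes, had pairs at 0.971 and 0.982. Ndufa10 had a second, dim probe set that followed the first at 0.212 only. The chosen probe sets of 11 genes end in s and of 6 in x, which the maker uses for sequences shared with other transcripts, so signal from related sequences cannot be told apart there.

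The subunit genes rose and fell together from lymphoma to lymphoma, complex IV least. The mean pairwise r was 0.267 over 3003 pairs of genes, and 2516 pairs were above 0. For 39 proteasome subunit genes, which are not mitochondrial, it was 0.278, and for 74 mitochondrial ribosomal protein genes 0.380. A mean r of this size was thus not particular to the subunit genes. Within complexes the mean pairwise r was 0.384 for ATP synthase, 0.321 for complex I, 0.314 for complex III, 0.235 for complex II and 0.10 for complex IV. Without the 6 tissue-restricted isoforms (Cox4i2, Cox6a2, Cox6b2, Cox7a1, Cox8b and Cox8c), complex IV came to 0.201 and all subunit genes to 0.308. Pairs that joined complex I with ATP synthase, at 0.340, or complex III with ATP synthase, at 0.347, were at or above the value within complex I. These correlations are descriptions over 43 arrays that share their handling, and without centring within the sets the mean was 0.663.

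A score for each complex was the mean centred value of its genes without the 6 tissue-restricted isoforms, so that complex IV was scored over 10 genes and all subunit genes over 72. The scores of complex I and ATP synthase had a Pearson r of 0.900 and a Spearman rho of 0.876 over 43 lymphomas, with 0.886 without the 2 lymphomas farthest out in complex I. Within the sets r was 0.911 (n = 36) and 0.828 (n = 7). Complex I and complex III stood at 0.883, and complex I and complex IV at 0.775. Complex II stood at 0.543 with complex I and at 0.557 with ATP synthase. Over these 72 subunit genes D71 had the highest score, 0.26, and D59 (-0.27), D78 (-0.24), D92 (-0.21) and D53 (-0.21) the lowest. D59 and D78 were low in complex I, at -0.31 and -0.34, and less so in complex II, at -0.04 and -0.16, while D89 was lower in complex II (-0.40) than in complex I (-0.17).

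**Figure D2:**
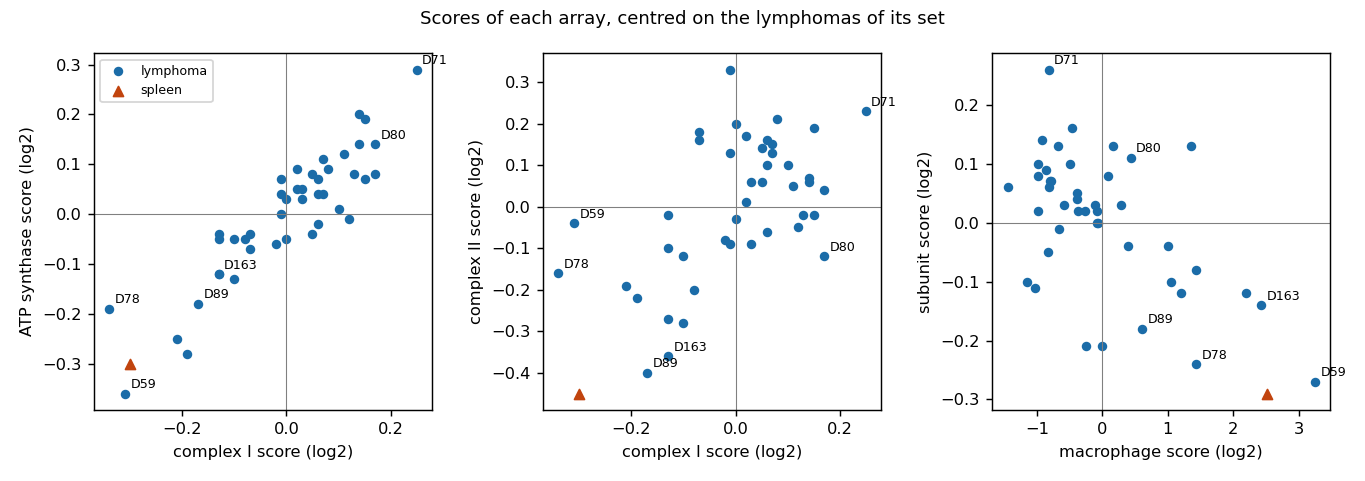
Mean centred log2 values of each array for complex I against ATP synthase and against complex II, and for macrophage markers against the 72 subunit genes without the restricted isoforms; circles are the 43 lymphomas and triangles the spleen. The points lie close to a line for ATP synthase (r = 0.900) and scatter more for complex II (r = 0.543), and D59 and D163, with macrophage scores of 3.25 and 2.43, lie low.

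Among single genes, Atp5g1, which encodes a c subunit of the ATP synthase rotor, was the one most like the mean of the others, with r = 0.833. It ranged from 9.85 to 10.94 with a median of 10.56 in the 36 lymphomas and from 11.13 to 11.74 with a median of 11.43 in the 7, and it was lowest in D59 and highest in D83. Next came Ndufb10 (0.818) and Ndufb3 (0.796), accessory subunits of the membrane arm of complex I. At the other end were Cox8b (-0.195), Cox7c (-0.170), Cox6b2 (-0.027), Sdha (0.005) and Cox8c (0.011). Sdha encodes the flavoprotein that oxidises succinate, and its r of -0.573 with Ndufa7 was the lowest of any pair. The other complex II genes stood nearer to the rest, and their levels are given with the Myc results.

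Other groups of mitochondrial genes followed the subunit genes. Over the 43 lymphomas the score of the 72 subunit genes had r = 0.919 with that of 74 mitochondrial ribosomal protein genes, 0.820 with that of 30 assembly factors and 0.710 with that of 16 genes of the TCA cycle and pyruvate oxidation. The score of 39 proteasome subunits, which are not mitochondrial, stood at 0.743. The macrophage score stood at -0.558, the stroma score at -0.501 and the T cell score at -0.394. Spearman values for the same 3 were -0.437, -0.308 and -0.399, and without the 2 farthest lymphomas r was -0.432, -0.332 and -0.420. Within the 7 lymphomas the stroma score turned to 0.508. The part of other cells in the level of the subunit genes was not tested beyond the covariates used below.

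Of all other genes, those most like the mean of the subunit genes were Mrpl20 (r = 0.849), a mitochondrial ribosomal protein, Dus1l (0.843), Cenpx (0.837), Park7 (0.837), Ddx56 (0.818), Mrps24 (0.818), Timm13 (0.810), Tbl3 (0.809), Ftsj1 (0.798) and Ntmt1 (0.796). Timm13 is a chaperone of mitochondrial protein import, Dus1l and Ftsj1 modify transfer RNA, and Ddx56 and Tbl3 act in the making of ribosomes. The 5 most opposed were Tcf4 (-0.743), Tmem176b (-0.732), Secisbp2l (-0.720), Slc46a3 (-0.720) and Pea15a (-0.712). All these values were taken over the 43 centred lymphomas.

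Because so many of these genes moved together, their RefSeq promoters (GRCm38.p6, from 250 bases before to 50 after the start of transcription) were searched on both strands for sets of letters that transcription factors are known to bind. Windows were matched for 64 of the 78 genes. The palindrome that NRF1, a factor known for respiratory chain genes, binds is spelled out in capitals in Atp5g2, Atp5k and Cox6a1 below. It was in 4 genes (6.25%), against 1.07% of 27025 genes and 2.31% of the 7070 expressed genes with a window. CCGGAAGT, an ETS site, was in 5 (7.81%), against 4.31% and 9.36%, and CACGTG, the E-box that Myc and other factors bind, was in 6 (9.38%), against 8.09% and 12%. A YY1 site was in 3 genes, Ndufa9, Ndufs4 and Ndufs7 (4.69%), against 0.755% and 1.82%, after the start in each. It is shown in capitals, at bases 25 to 35 after the start, in 30 bases of Ndufs7 on the plus strand at chr10:80249464-80249493. A match is a run of letters and no proof of binding, and 1 of the 6 genes with an E-box was among the genes with a called rise with Myc described below, against 19 of 58 without. The 250 bases before the start are shown for Atp5g1, the gene most like the rest, with its E-box in capitals, and for the 3 genes whose NRF1 letters lay before the start, with those in capitals. All are written 5′ to 3′ on the strand of the gene, which is the minus strand in each: Atp5g1 at chr11:96075632-96075881, Atp5g2 at chr15:102671048-102671297, Atp5k at chr5:108434400-108434649 and Cox6a1 at chr5:115348959-115349208.
Atp5g1: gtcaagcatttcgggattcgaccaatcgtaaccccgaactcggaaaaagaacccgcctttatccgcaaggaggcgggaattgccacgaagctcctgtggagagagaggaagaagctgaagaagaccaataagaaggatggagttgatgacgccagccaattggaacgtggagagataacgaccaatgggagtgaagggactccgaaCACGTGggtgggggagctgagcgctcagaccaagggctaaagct
Atp5g2: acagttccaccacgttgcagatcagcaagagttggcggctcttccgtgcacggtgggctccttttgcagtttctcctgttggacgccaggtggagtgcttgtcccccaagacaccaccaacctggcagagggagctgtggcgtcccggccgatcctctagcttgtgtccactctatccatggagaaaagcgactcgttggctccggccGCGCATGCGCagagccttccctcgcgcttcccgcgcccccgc
Atp5k: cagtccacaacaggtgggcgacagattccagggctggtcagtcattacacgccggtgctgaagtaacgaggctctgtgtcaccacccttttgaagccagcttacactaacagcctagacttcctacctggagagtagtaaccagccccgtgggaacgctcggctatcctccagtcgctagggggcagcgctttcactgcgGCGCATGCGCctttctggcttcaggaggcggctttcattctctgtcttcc
Cox6a1: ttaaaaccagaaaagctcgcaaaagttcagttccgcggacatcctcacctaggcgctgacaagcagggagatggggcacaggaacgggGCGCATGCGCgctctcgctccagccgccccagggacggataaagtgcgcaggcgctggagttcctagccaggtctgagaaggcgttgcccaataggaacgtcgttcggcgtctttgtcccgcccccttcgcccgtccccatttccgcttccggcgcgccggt
Ndufs7: gccgaggccAAGATGGCGGCgctggcgggt
The start used for Atp5g1 lies inside the annotated gene, whose first base on that strand is 96075694, so that 63 of the 250 bases shown, the E-box among them, lie within the gene. The other 3 windows of 250 bases lie outside theirs. The start used for Ndufs7 lies inside its annotated gene too, whose first base is 80249105, so that all 30 bases shown lie within the gene. The E-box of Atp5g1 spans bases -44 to -39 from that start, and the NRF1 letters span -42 to -33 in Atp5g2, -50 to -41 in Atp5k and -162 to -153 in Cox6a1. Atp5g1 and Atp5g2 encode the same mature c subunit from different genes, Atp5k encodes the small e subunit, and Cox6a1 the common form of a complex IV subunit.

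Slopes on the level of Myc itself were fitted in log2 units per log2 unit of Myc, with limma over all 8721 genes and Benjamini-Hochberg adjustment at 0.05. Myc ranged from 9.15 (D88) to 11.44 (D43) with a median of 10.54 in the 36 lymphomas, and from 9.90 to 11.78 with a median of 11.22 in the 7. Of the 78 subunit genes, 25 rose with Myc (32.1%) and 0 fell, where 26.4% of all genes rose and 16.9% fell (43.3% in either direction). At an unadjusted p below 0.05 in limma, 32 rose and 0 fell. Counts at that threshold, here and below, were taken for the subunit genes only and cannot be set against a share of all genes. The median slope was 0.08, against 0.03 over all genes. By complex, those that rose were 14 of 33 in complex I, 3 of 4 in complex II, 2 of 8 in complex III, 2 of 16 in complex IV and 4 of 17 in ATP synthase. Their median slopes were 0.11, 0.14, 0.05, 0.05 and 0.09.

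In complex I, Ndufa10, an accessory subunit of the membrane arm, ranged from 10.56 to 11.57 with a median of 11.04 in the 36 lymphomas and from 11.55 to 12.39 with a median of 11.95 in the 7. It was lowest in D53 and highest in D71, and its slope on Myc was 0.29 ± 0.05 (SE, limma adjusted p = 5.26e-05). Ndufb3 ranged from 9.77 to 10.52 and from 10.94 to 11.56, with a slope of 0.23 ± 0.05 (limma adjusted p = 0.000171). Ndufa12 ranged from 11.20 to 12.50 and from 12.33 to 12.80, with a slope of 0.23 ± 0.06 (limma adjusted p = 0.000863). Ndufs1, Ndufs3 and Ndufv2, core subunits of the arm that reaches into the matrix, had slopes of 0.18, 0.15 and 0.15 and passed too. Ndufa4, which carries a complex I name but is now counted with complex IV, rose by 0.14.

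Complex II held the steepest slope of all subunit genes. Sdhd, one of the membrane anchors, ranged from 9.87 (D53) to 11.04 with a median of 10.55 in the 36 lymphomas and from 10.51 to 11.52 with a median of 11.27 in the 7, and rose by 0.31 ± 0.07 (SE, limma adjusted p = 0.000251). Sdhb, the iron-sulfur subunit, ranged from 10.57 to 11.55 and from 11.66 to 12.33 and rose by 0.16 (limma adjusted p = 0.0155). Sdhc, the other anchor, ranged from 8.95 to 10.31 and from 9.53 to 9.89 and rose by 0.13 (limma adjusted p = 0.0446). Sdha ranged from 9.37 to 10.92 and from 10.62 to 11.37, with a slope of -0.02 ± 0.09 that did not pass (limma adjusted p = 0.845). Sdha thus had the widest spread of the 4, 0.330, without a slope on Myc that could be told from 0.

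In complex III, Uqcrc2, a core protein, rose by 0.12 and Uqcr11, a small subunit, by 0.21 (limma adjusted p = 0.0214 for both). In complex IV, Cox6a1 rose by 0.14 ± 0.03 (limma adjusted p = 0.000503) and Cox5a by 0.12 ± 0.03 (limma adjusted p = 0.0057). Cox6a1 is the common form of a subunit that also has a restricted isoform. Of the other common forms of this kind, Cox4i1 (0.00), Cox6b1 (0.04), Cox7a2 (0.04) and Cox8a (-0.04) did not pass. In ATP synthase, the catalytic subunit Atp5b rose by 0.15, the alpha subunit Atp5a1 by 0.16 and the f subunit Atp5j2 by 0.14 (limma adjusted p = 0.0177, 0.0214 and 0.0108), and Atp5mpl was the other gene that passed.

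The macrophage and T cell markers moved the opposite way. With Myc, 9 of 15 macrophage markers and 11 of 12 T cell markers fell (medians of -0.86 and -1.17). With the T cell, macrophage and stroma scores as covariates, 0 subunit genes passed in limma (11 rose and 0 fell at an unadjusted p below 0.05), where 5.29% of all genes rose and 2.98% fell. The median slopes were then 0.06 in complex I, 0.16 in complex II, 0.04 in complex III, -0.05 in complex IV and 0.05 in ATP synthase, against 0.01 over all genes. Ndufa10 was at 0.15 (limma adjusted p = 0.148) and Sdhd at 0.23 (limma adjusted p = 0.135). With the G2/M score as a covariate, an alternative added after the data were seen, 9 rose and 1 fell, where 16.9% of all genes rose and 12.4% fell. Over the 36 lymphomas alone 11 rose, where 22.1% of all genes did, and without the 4 lymphomas that stood apart 21 rose, where 25.9% did.

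The other lists were counted in the same way, beside the 26.4% of all genes that rose and 16.9% that fell. Of 74 mitochondrial ribosomal protein genes 40 rose and 2 fell with Myc (median slope 0.16), with Mrps9 at 0.53 ± 0.07 (limma adjusted p = 5.42e-07). Of 16 TCA cycle genes 10 rose (median 0.18), led by Suclg2, a subunit of succinyl-CoA ligase, at 0.49 ± 0.10. Of 30 assembly factors 12 rose (median 0.15), with Acad9 at 0.36 ± 0.06 and Ecsit at 0.46 ± 0.09, both needed to build complex I. Of 14 regulators of mitochondrial genes 7 rose and 1 fell: Tfam, which packages mitochondrial DNA and starts its transcription, rose by 0.35 ± 0.06 (limma adjusted p = 1.83e-05), Tefm, a transcription elongation factor of mitochondria, by 0.36, and the nuclear receptor Esrra fell by 0.21. Of 16 electron carriers and related genes 5 rose, among them Coq6 of ubiquinone synthesis at 0.35. Of 39 proteasome genes 8 rose and 4 fell, the immunoproteasome subunits Psmb9 (-0.74), Psmb8 (-0.52) and Psmb10 (-0.30) among the latter. Of the subunits encoded by mitochondrial DNA only ND5 was matched on the array, with a slope of 0.05 that did not pass.

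**Figure D3:**
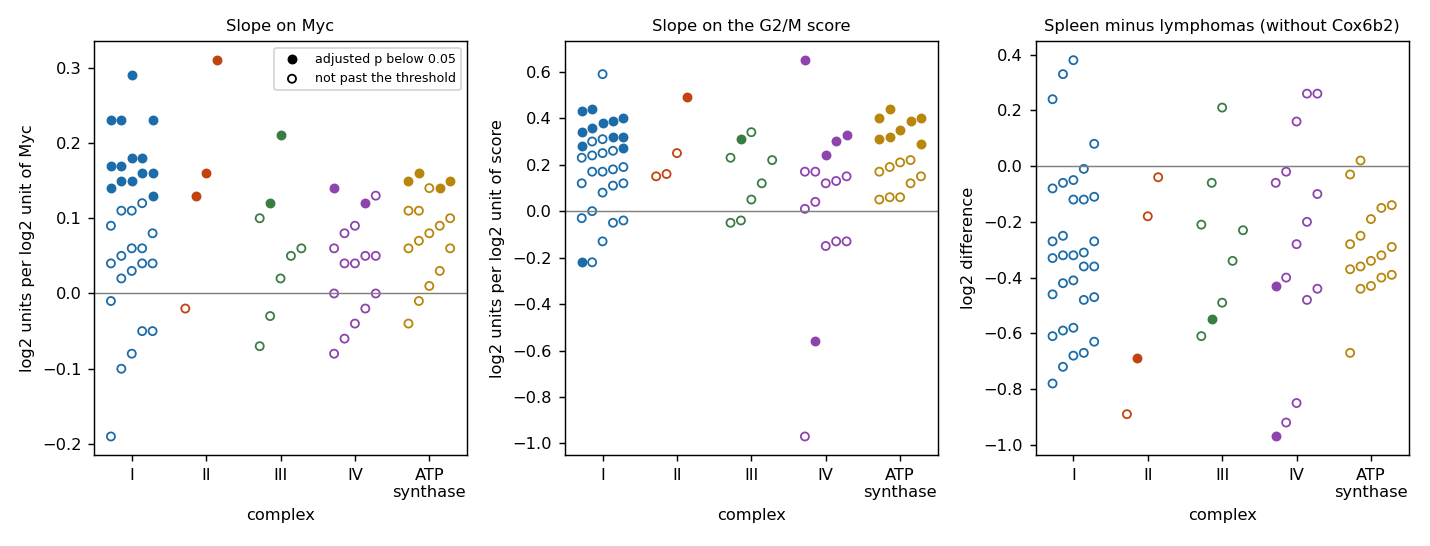
Slope on Myc, slope on the G2/M score and spleen minus lymphomas for each subunit gene, by complex, in log2 units; filled points passed a limma adjusted p of 0.05 and open points did not, and Cox6b2 (4.28 in the spleen) is left off the last panel. Filled points lie above 0 for Myc, with 14 in complex I, and above 0 for G2/M except Ndufa13 and Cox8b.

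With the score of 22 G2/M genes, a measure of dividing cells, 25 subunit genes rose (32.1%) and 2 fell (2.56%), where 25.1% of all genes rose and 14.6% fell (39.7% in either direction). The median slope was 0.19 per log2 unit of score, against 0.08. ATP synthase had 8 of 17 that rose, complex I 11 of 33, complex IV 4 of 16, complex II 1 of 4 and complex III 1 of 8. All 17 slopes of ATP synthase lay above 0, from 0.05 to 0.44.

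Cox5a ranged from 12.11 to 12.83 with a median of 12.54 in the 36 lymphomas and from 13.05 to 13.27 with a median of 13.17 in the 7. It was lowest in D92, the lymphoma with the lowest G2/M score (-0.88), and its slope was 0.30 ± 0.06 (SE, limma adjusted p = 0.000185). D92 also had a high 3′ minus 5′ control difference (0.93). Ndufa9, a subunit at the junction of the arms of complex I, ranged from 10.28 to 11.18 and from 11.37 to 11.93, was also lowest in D92, and had a slope of 0.44 ± 0.10 (limma adjusted p = 0.00039). In ATP synthase, Atp5g3, a further gene for the c subunit, had a slope of 0.32 ± 0.07, Atp5b of 0.40 ± 0.09 and Atp5mpl of 0.44 ± 0.11 (limma adjusted p = 0.0004, 0.000675 and 0.0015). Atp5b ranged from 11.42 in D92 to 12.37 in the 36 lymphomas. Ndufb3 (0.36), Ndufa8 (0.32), Sdhd (0.49), Uqcrc1 (0.31), Cox7a2 (0.33) and Cox6a1 (0.24) rose as well. Those that fell were Ndufa13, a subunit also known as GRIM-19, at -0.22 ± 0.09 (limma adjusted p = 0.0496), and Cox8b at -0.56 ± 0.22 (limma adjusted p = 0.0367).

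These counts rested in part on few lymphomas. Without the 4 that stood apart, among them D92 and D59 (G2/M score -0.70), 10 rose and 1 fell, where 21.6% of all genes rose and 13.4% fell. Without the 2 lymphomas farthest from the median of the score 10 rose and 1 fell as well, where 21.4% and 12.9% of all genes did. Cox8b then had a slope of 0.01 in both. With the T cell, macrophage and stroma scores as covariates 3 rose and 2 fell, where 5.24% of all genes rose and 2.05% fell. Cox5a (0.29, limma adjusted p = 0.0128) and Ndufa9 (0.41, limma adjusted p = 0.0215) still passed. In the fit without these covariates 14 of 15 macrophage markers and 6 of 12 T cell markers fell with the G2/M score. With Myc as a covariate 12 rose, where 13.7% of all genes did. Among the other groups, beside the 25.1% of all genes that rose, 50 of 74 mitochondrial ribosomal protein genes, 20 of 39 proteasome genes, 14 of 30 assembly factors, 9 of 16 TCA cycle genes and 8 of 14 regulators rose with the score.

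The next slopes were taken on the score of 17 glycolysis and hypoxia genes, among them the glycolytic enzymes and targets of low oxygen. Of the subunit genes 0 rose and 13 fell (16.7%), where 13% of all genes rose and 15.8% fell (28.8% in either direction); at an unadjusted p below 0.05, 0 rose and 19 fell in limma. The median slope was -0.19, against -0.09 over all genes. Complex I had 6 of 33 that fell, complex IV 4 of 16, ATP synthase 2 of 17, complex II 1 of 4 and complex III 0 of 8. At an unadjusted p below 0.05 complex III also had 0.

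Ndufa12, which was lowest in D78 and highest in D81, had the steepest of these slopes at -0.66 ± 0.11 (SE, limma adjusted p = 5.76e-05). Cox7a2l ranged from 10.16 in D75 to 11.51 in the 36 lymphomas and from 11.75 to 12.26 in the 7, with a slope of -0.60 ± 0.17 (limma adjusted p = 0.00656). Sdhd had a slope of -0.59 ± 0.17 (limma adjusted p = 0.00854), and Ndufs7, the core subunit with the last iron-sulfur cluster before ubiquinone, one of -0.49 ± 0.14 (limma adjusted p = 0.00794). Ndufb7 (-0.38), Cox6a1 (-0.26), Cox5b (-0.24), Atp5h (-0.32) and Atp5mpl (-0.35) fell too. With the score, 11 of 15 macrophage markers and 4 of 12 T cell markers rose. With the T cell, macrophage and stroma scores as covariates 0 subunit genes passed in limma (1 rose and 11 fell at an unadjusted p below 0.05) and 70 of 78 slopes lay below 0, with Ndufa12 at -0.57 (limma adjusted p = 0.0683). Of all genes 0.562% rose and 0.115% fell in that fit. Without D163 4 fell, where 10.1% of all genes did, without D52 7 fell (12.7% of all genes) and 1 rose, and without D75 20 fell (18.9% of all genes).

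With the B cell stage score, the mean of mature minus precursor B cell markers, few subunit genes moved. There were 2 that rose (2.56%) and 5 that fell (6.41%), where 11.5% of all genes rose and 12.8% fell (24.3% in either direction). Cox4i1, the common form of the largest nuclear-encoded complex IV subunit, rose by 0.04 ± 0.01 per log2 unit of score (limma adjusted p = 0.0169) and Ndufv3, an accessory subunit of the NADH-oxidising module of complex I, by 0.06 ± 0.02. Ndufs5 fell by 0.09 ± 0.02 (limma adjusted p = 0.00767). Among the 36 lymphomas it ranged from 9.08 in D89 to 10.45 in D69, whose stage scores were 2.83 and 0.21. Ndufa12 (-0.06), Atp5mpl (-0.05), Cox6c (-0.04) and Cox6a1 (-0.03) also fell. The score spans from -4.15 to 2.83. Without the 4 lymphomas that stood apart 2 rose and 10 fell, where 16.1% of all genes rose and 19.4% fell. Without D53, D88 or D163 the count was 3, where 9.83% to 10.7% of all genes rose and 10.2% to 11.8% fell. Without D43, D46, D56 or D62 it was 4, where 9.87% to 11.1% of all genes rose and 10.8% to 12.4% fell. It was 11 without D59, where 15.3% of all genes rose and 18.3% fell.

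In the spleen 1 subunit gene, Cox6b2, was far higher than in the lymphomas, and 73 of 78 did not pass. The median difference from the lymphomas was -0.32 log2 units, against -0.16 over all genes, and 68 of 78 differences (87.2%) lay below 0, against 60.1% of all genes. By complex the medians were -0.32 in complex I, -0.43 in complex II, -0.28 in complex III, -0.24 in complex IV and -0.32 in ATP synthase. The spleen lay below all 7 lymphomas of its set in 44 genes, within their range in 31 and above them in 3, which were Cox6b2, Cox6a1 and Ndufa1. In limma 1 gene was higher (1.28%) and 4 were lower (5.13%), where 7.6% of all genes were higher and 5.79% lower (13.4% in either direction). At an unadjusted p below 0.05, 1 was higher and 18 were lower. With a single spleen, the spread of the lymphomas stands for its own.

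Cox6b2, known as the testis isoform of Cox6b, ranged from 3.95 (D35) to 6.56 (D89) with a median of 4.59 in the 36 lymphomas and from 4.82 to 7.10 (D161) with a median of 5.17 in the 7. In the spleen it was 9.75, above every lymphoma. The difference was 4.28 ± 0.56 (SE, limma adjusted p = 1.07e-07), and it lay between 4.10 and 4.95 under the 12 other settings, all of which kept it past the threshold. Cox6b1, the common form, was 12.85 in the spleen, below 40 of 43 lymphomas on the centred scale. All 11 erythroid markers were higher in the spleen (median 6.77), as were 7 of 9 neutrophil and 3 of 15 macrophage markers. Their part in the level of Cox6b2 was not tested, and among the lymphomas the erythroid markers had a median SD of 0.177. The filter counted the spleen too, so a marker low in every lymphoma could be kept through the spleen alone. On the lymphomas only, 8619 genes passed it instead of 8721. The count of erythroid markers may thus be set in part by the filter.

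The 4 genes that were lower in the spleen belong to complexes II, III and IV. Sdhb was 11.35 in the spleen, where the 7 lymphomas ranged from 11.66 to 12.33, a difference of -0.69 ± 0.23 (limma adjusted p = 0.0374). Cox7a2l was 11.06, against 11.75 to 12.26, a difference of -0.97 ± 0.33 (limma adjusted p = 0.0402). Uqcrc2 was 11.28, against 11.65 to 11.97, and Cox5a was 12.73, against 13.05 to 13.27, with differences of -0.55 and -0.43 (limma adjusted p = 0.0472 and 0.0486). On the centred scale all 4 were lower in the spleen than in each of the 43 lymphomas. Sdhd (-0.89) and Cox7a1 (-0.92) were among the genes that lay below all lymphomas without passing. Cox7a1 lay above the median of its set on only 4 arrays and was 4.97 in the spleen, so its difference rests on low values. Without the set as a covariate 2 subunit genes were higher and 0 lower in limma (9 and 0 at an unadjusted p below 0.05), Sdhb, Uqcrc2 and Cox5a turned to differences of 0.10, 0.23 and 0.12, and the median of all genes was 0.41.

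Which genes passed in the spleen depended on single lymphomas. In each fit named next, the share of all genes that passed moved the same way as the count, but by a smaller proportion. The count of 5 became 1 without D151, 2 without D121, D133 or D135, 9 without D163, and 3 without any 1 of D55, D56, D57, D58, D62, D63, D69, D70, D82, D83, D93, D98 or D143. Beside the subunit genes, where 5.79% of all genes were lower in the spleen, 20 of 74 mitochondrial ribosomal protein genes were (27%, median -0.63), 4 of 30 assembly factors (13.3%) with Ndufaf5 at -1.55 ± 0.35 (limma adjusted p = 0.00179), 2 of 16 TCA cycle genes (12.5%) with Fh1 at -1.27, and 3 of 16 electron carriers and related genes (18.8%). These 3 were Slc25a4 (-1.72 ± 0.30, limma adjusted p = 4.39e-05) and Slc25a5 (-0.50), which exchange ADP and ATP across the inner membrane, and Cycs, cytochrome c (-0.91 ± 0.21, limma adjusted p = 0.00219). Of the regulators 2 of 14 were lower (14.3%), Tfam (-1.08) and Tefm (-1.27), and of the proteasome genes 4 of 39 (10.3%).

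Among the restricted isoforms of complex IV, Cox6a2, the form of heart and skeletal muscle, was high in a few lymphomas. Its median was 6.83 in the 36 lymphomas, with a lowest value of 6.17 in D78, and 7.91 in the 7. Among the 36 it reached 11.15 in D84, 10.25 in D92, 9.06 in D47, 8.69 in D83, 8.61 in D34 and 8.40 in D81. Among the 7 it ran from 7.60 in D151 to 9.30 in D133, and the spleen, at 7.30, lay below them all. D84 and D92 stood apart from the other lymphomas, and most lay near the median. D84 and D92 also had high 3′ minus 5′ control differences (1.18 and 0.93), as did D85 (1.07), where Cox6a2 was 7.38. The part of RNA quality in the Cox6a2 values was not tested. The common form Cox6a1 had medians of 13.44 and 14.22 in the 36 and the 7 lymphomas, with an SD of 0.148 on the centred scale. The skeletal muscle score, on 3 expressed genes of 9, was 0.00 in D84, 0.34 in D92 and 0.77 in D83. It was -0.13 in D133, -0.04 in D47, -0.24 in D34 and -0.17 in D81. Its 3 genes had a mean pairwise r of -0.027, so the score is a poor measure of muscle. Genes most like Cox6a2 over the 43 lymphomas were Aldh3a1 (r = 0.690), Ramp1 (0.653), Trim46 (0.648) and Scin (0.646). Cox6a2 passed in none of the 5 fits, with limma adjusted p-values of 0.135 to 0.898.

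Cox8b, a form found in muscle and brown fat of rodents, was high in D59 alone. It was 8.01 there, while the next highest lymphoma, D143, was at 6.07, the median of the 36 lymphomas was 5.49, and the spleen was at 5.25. D59 is the lymphoma with the adipocyte score of 6.28, and Adipoq, a hormone of fat cells, was 11.24 in D59 and 6.63 in the next. The gene most like Cox8b was Cidea, a lipid droplet protein of brown fat (r = 0.918). Next came Ptprz1 (0.914), Adamts15 (0.910), Smoc2 (0.901) and Trp63 (0.897). Since Cox8b was high in D59 alone, these correlations rest mainly on that 1 lymphoma and point to no cell type. Cox7a1, a muscle form that is also found in brown fat, ranged from 4.72 in D92 to 6.76 in D75 in the 36 lymphomas and was 4.97 in the spleen, and it rose with the G2/M score by 0.65 ± 0.24 (limma adjusted p = 0.032).

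**Figure D4:**
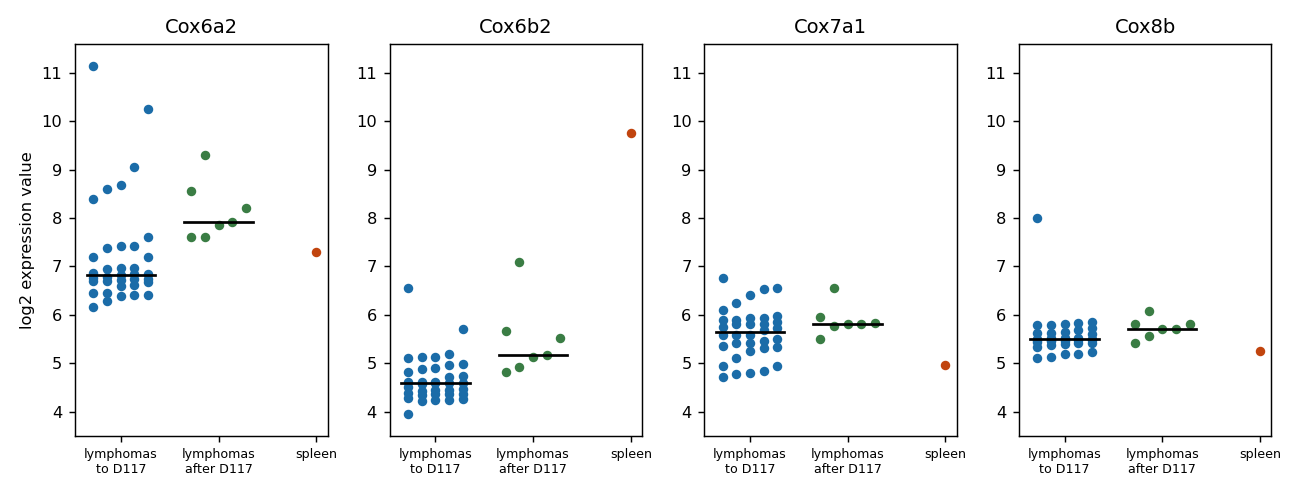
Log2 values of 4 tissue-restricted complex IV isoforms on every array, for the 36 lymphomas up to D117, the 7 lymphomas after it, and the spleen; points are arrays and bars are medians. Cox6a2 reaches 11.15 in D84, Cox6b2 stands at 9.75 in the spleen, and Cox8b stands at 8.01 in D59.

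Subunit genes that share a chromosome were more alike than those that do not, a pattern looked at after the data had been seen and given as a description. The 142 pairs on the same chromosome had a mean r of 0.387, and 38.7% of them exceeded 0.5. The 2861 pairs on different chromosomes had a mean of 0.261, and 17.3% exceeded 0.5. Of the 10 most alike pairs 5 shared a chromosome, and of the 50 most alike 13 did (26%), where 4.73% of all pairs did. The most alike pair of all was Ndufa10 and Ndufb3 (r = 0.878), which lie 33.9 Mb apart on chromosome 1, although both ran against the mean of the other genes of that chromosome taken as described below (r = -0.153 and -0.205). Atp5j and Atp5o, the coupling factor and the oligomycin-sensitivity subunit of ATP synthase, came next (0.872, 7.1 Mb apart on chromosome 16), then Atp5g1 and Uqcr10 (0.823, 91.4 Mb apart on chromosome 11).

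Each gene was also set against the mean of the other expressed genes of every chromosome, subunit genes left out, after the mean of each array over all genes had been taken off. For 29 of the 78 subunit genes (37.2%) their own chromosome gave the highest r of 20, as it did for 24.6% of 8706 genes of all kinds. The median r with the own chromosome was 0.315 for the subunit genes and 0.180 for all genes, and with other chromosomes -0.0253 and -0.0159. The means themselves shifted in single lymphomas. Chromosome 13, over 300 other genes, stood at -0.53 in D80, -0.48 in D35 and -0.48 in D107, and the next lowest lymphoma was at -0.196. Copy number was not measured here.

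The genes of chromosome 13 moved with it. Sdha was -0.81 in D80, -0.97 in D35 and -0.61 in D107, its 3 lowest values. Uqcrfs1, the Rieske iron-sulfur protein of complex III, was -0.76, -0.88 and -0.58, also its 3 lowest. Ndufs4 was -0.43, -0.85 and -0.36, Uqcrb was -0.38, -0.47 and -0.32, and Cox7c was -0.66 and -0.69 in D80 and D107 but 0.19 in D35. Over the 43 lymphomas Sdha had r = 0.690 with the mean of chromosome 13, Uqcrfs1 0.696, Uqcrb 0.602, Ndufs4 0.468 and Cox7c 0.314. The scores of D80 were -0.12 for complex II, which holds Sdha, and 0.17 for complex I.

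On chromosome 15 the mean of 344 other genes was 0.46 in D56, 0.31 in D55 and 0.26 in D85. Ndufb9 (0.76), Atp5g2 (0.60) and Cox6c (0.57) had their highest values in D56, and Ndufa6 (0.46) its second highest. On chromosome 5 the mean of 547 other genes ran from -0.15 in D89 to 0.33 in D62, and the subunit genes there, Atp5j2, Atp5k and Cox6a1, had r = 0.763, 0.661 and 0.690 with it. On chromosome 19 the mean was -0.40 in D98, where Cox8a had its lowest value (-0.74), while Ndufv1 was at -0.15. The mean of the 5 subunit genes of chromosome 19 had an r of 0.232 with the mean of the others, against 0.770 for the 5 of chromosome 13, 0.773 for the 3 of chromosome 5 and 0.599 for the 4 of chromosome 15. The same r lay below 0 for chromosomes 1 (-0.0507), 6 (-0.133), 9 (-0.11) and 10 (-0.0744). On the remaining chromosomes with subunit genes it ran from 0.277 (chromosome 7) to 0.578 (chromosome 17).

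**Figure D5:**
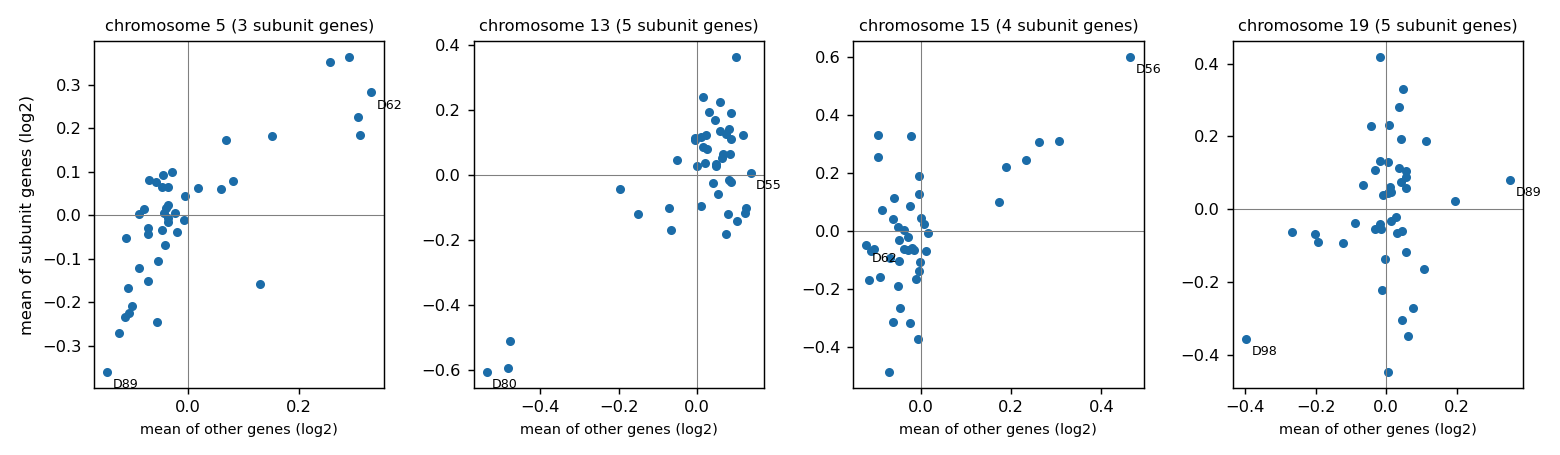
Mean of the subunit genes of a chromosome against the mean of its other expressed genes, both centred and with the mean of the array taken off (log2), for chromosomes 5, 13, 15 and 19; each point is 1 of 43 lymphomas. On chromosome 13, 3 lymphomas lie apart at the lower left, with D80 at -0.53, and on chromosome 15 D56 lies apart at 0.46.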

How the data were processed

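The authors deposited log2 expression values per probe set, made with RMA in the affy package per the submitters' processing notes, with versions not given in the sources used here. A column median gap separates the arrays at title D117, and whether RMA was run on each side separately is not stated. The table held 22690 probe sets, and the 20380 with a single symbol were taken. All 78 subunit genes matched the GRCm38.p6 annotation by Entrez identifier. No read depth exists for arrays, so their number limits the precision.

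Slopes and differences were fitted with limma 3.58.1 in R 4.3.3 (lmFit, eBayes with an intensity trend), two-sided, with the set as a covariate and Benjamini-Hochberg adjustment over 8721 genes. Errors are standard errors. A score is the mean centred value of a list's expressed genes, without the 6 tissue-restricted isoforms in the scores of complex IV and of all subunit genes. SDs have the residual degrees of freedom after the set means. The pipeline was tested on simulated data. Alternatives concerned the filter, the probe set, the set covariate, column scaling, eBayes settings, array weights (statmod 1.5.0), covariates and the lymphomas used.

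Named with values were up to 3 genes per fit, complex and direction, the 6 widest and 6 narrowest spreads, the isoforms with their partners, complex II, the most and least typical genes, up to 4 genes of each other list, and the 10 most and 5 least similar other genes. The genes, lists and tests were chosen with earlier results of these data known. The chromosome values, the Cox6a2 and Cox8b neighbours, and Ndufa4, Ndufs1, Ndufs3, Ndufv2 and Ndufa1 were named after their values were seen.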

Additional observations from a re-analysis of the deposited data

How the results depend on the processing

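No paired analysis was possible because the replicate numbers only name the lymphomas and there was 1 spleen. The counts in this section are of subunit genes alone, without the share of all genes in the same fit beside them. They show how the fits move and no property of the subunit genes in particular. Without the set covariate 2 subunit genes passed in the spleen, 58 for Myc, 72 for G2/M, 71 for glycolysis and hypoxia (all higher) and 0 for stage (1 higher and 1 lower at an unadjusted p below 0.05 in limma). The medians of complexes I, II, III and ATP synthase in the spleen were then 0.34, 0.00, 0.30 and 0.33; the Myc medians of complexes I, III, IV and ATP synthase 0.27, 0.25, 0.22 and 0.26; the G2/M medians of complexes I to IV and ATP synthase 0.66, 0.58, 0.57, 0.56 and 0.63; and the glycolysis medians 0.52, 0.32, 0.52, 0.44 and 0.42. Signs turned for Sdhb (0.10), Uqcrc2 (0.23) and Cox5a (0.12) in the spleen, for Ndufa13 with G2/M (0.42), and with glycolysis for Atp5h (0.42), Atp5mpl (0.37), Ndufa12 (0.30), Ndufs7 (0.41), Ndufb7 (0.49), Sdhd (0.20), Cox7a2l (0.46), Cox6a1 (0.43) and Cox5b (0.65). Without centring within sets the median SD was 0.378 and the mean pairwise r 0.663. The cause was not tested.

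With columns shifted to equal medians within each set the counts were 10 in the spleen, 45 for Myc, 58 for G2/M and 4 for glycolysis, the spleen median of ATP synthase was -0.50, the Myc medians of complex III, complex IV and ATP synthase were 0.14, 0.12 and 0.17, and the G2/M medians of complex III and ATP synthase 0.33 and 0.36. That scaling moved the median of all genes to -0.34 in the spleen, 0.11 for Myc and 0.23 for G2/M. In the spleen the count was 3 with no filter, with no intensity trend, with a filter on the lymphomas only and with the 7 lymphomas of its set, and 18 with array weights. With the other-cell covariates the counts were 0 for Myc, 5 for G2/M, 2 for stage and 0 for glycolysis, and the Cox6a1 stage slope turned to 0.00. Of the slopes and differences of named genes, 6 stayed past the threshold in the same direction with these covariates, 40 did not pass and 1 turned, and without the set covariate 25 stayed, 9 did not pass and 13 turned. With the 3′ minus 5′ control difference as a covariate 41 stayed and 6 did not pass. Without the 4 lymphomas that stood apart the counts were 11 for G2/M, with Cox8b at 0.01, and 12 for stage. Over the 36 lymphomas alone they were 11 for Myc, 4 for stage and 4 for glycolysis. Without the 2 farthest lymphomas they were 15 for Myc and 11 for G2/M, with Cox8b at 0.01. Array weights gave 16 for G2/M, no filter 4 for stage, and G2/M or Myc as a covariate 10 for Myc and 12 for G2/M. Leaving out each lymphoma gave 1 to 9 in the spleen, 20 to 28 for Myc, 19 to 33 for G2/M, 3 to 11 for stage and 4 to 20 for glycolysis.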
